A study of Mus musculus with 15 samples.

Results

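The 8 genes Acta2, Actg2, Myh11, Myl9, Cnn1, Tagln, Lmod1 and Des, which encode smooth muscle contractile and cytoskeletal proteins, were followed through 15 mouse testis libraries. They were chosen by symbol as genes of peritubular myoid cells and smooth muscle, and all 8 were found among the 23510 gene IDs of the table. The libraries fell into 5 groups of 3, all from testes of male ICR mice, an outbred stock. Con was labelled only as control, and the sources used here do not say how these testes were handled. MNC testes received the control lentivirus (shNC). M1, M3 and M5 testes received lentivirus with shRNA against the M1, M3 or M5 muscarinic acetylcholine receptor, encoded by Chrm1, Chrm3 and Chrm5. Per the study's methods, virus was injected into the testes of pubertal mice, testes were collected some days later, and RNA came from one whole testicle, so any cell of the testis could have been infected and all its cell types were in the RNA. The titles name testis while the extraction text names sperm. For M5 replicate 2 the title and the description point to different columns of the table, and the title was followed. Replicates may share an animal or a preparation, since nothing says that they did not, so p-values measure only the spread between these samples.

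Peritubular myoid cells are flat, smooth-muscle-like cells that surround the seminiferous tubules. With the Sertoli cells they lay down the basement membrane, and their contraction moves sperm and tubule fluid towards the rete testis. The testis also holds smooth muscle in its blood vessels and capsule. In smooth muscle, calcium-bound calmodulin activates myosin light chain kinase, which phosphorylates the regulatory light chain of myosin so that myosin pulls on actin filaments. Many smooth muscle genes are regulated by serum response factor (SRF), with cofactors of the myocardin family, through a DNA element called the CArG box.

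Promoter and coding sequences are shown first because the first places Acta2 and Myl9 beside that element and the second shows how far the 2 smooth muscle actins can be told apart by sequencing. Promoters from 250 bases before to 50 after the start were taken from a RefSeq table of GRCm38.p6 (the build of mm10, which the submitters' processing notes name) and matched 5 of the 8 genes, Acta2, Cnn1, Myl9, Des and Lmod1. The CArG box was searched on both strands as CC, 6 bases that are each A or T, then GG. It was in 1 of the 5 promoters, that of Myl9, and in 1.63% of all 32851 promoters. With up to 1 G or C allowed among the inner 6 bases it was in 2 of 5, those of Myl9 and Acta2, and in 9.98% of all promoters. A match is a description of letters and no evidence of binding. The stretches below lie at chr2:156775278-156775337 on the plus strand for Myl9 and at chr19:34255423-34255482 on the minus strand for Acta2. The Myl9 box starts 161 bases before the start used for its promoter. The Acta2 box, with 1 G or C among the inner 6 bases, starts 84 bases before its own. These starts differ from the outer ends of the gene loci, chr2:156775408 and chr19:34255585, and the Acta2 box lies within the locus of Acta2. Looser matches 99 bases before the Myl9 start and 34 before that of Acta2 are not printed. Capitals mark the box.
Myl9: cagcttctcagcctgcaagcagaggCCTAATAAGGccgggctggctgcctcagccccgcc
Acta2: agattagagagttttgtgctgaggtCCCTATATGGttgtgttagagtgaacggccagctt

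Acta2 encodes the vascular type of smooth muscle actin and Actg2 the enteric type. Their coding sequences were 84.2% identical over 1134 aligned bases, the longest identical run was 29 bases, and 0% of the 50-base windows of either matched the other with at most 2 mismatches. Between Actg2 and the cardiac actin gene Actc1 4.7% of windows matched, and between Actg2 and the skeletal actin gene Acta1 2.9%. Reads of that length from these windows could be counted for either gene, but Acta1 was at most at 0.17 FPKM and Actc1 at most at 0.14 FPKM in any library. The cytoplasmic actin genes Actb and Actg1, at means of 289 and 463 FPKM in MNC, were not compared in this way. Reads shared with them were thus not assessed. The stretches below are bases 13 to 120 of the Acta2 coding sequence and 10 to 117 of that of Actg2, with the 19 bases that differ in capitals.
Acta2: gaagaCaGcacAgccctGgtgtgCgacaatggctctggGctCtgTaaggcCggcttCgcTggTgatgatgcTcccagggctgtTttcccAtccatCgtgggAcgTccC
Actg2: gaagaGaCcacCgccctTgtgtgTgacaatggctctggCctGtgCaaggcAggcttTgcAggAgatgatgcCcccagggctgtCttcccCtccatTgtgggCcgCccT

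Values are FPKM, fragment counts scaled by gene length and library total, so levels can be compared between genes. Summed FPKM was 470243 to 513817 per library, 20619 to 20840 genes were above 0, and from the smallest steps of low values relative depth was 0.936 to 1.03, while the absolute depth is unknown. The targeted transcripts were low, with Chrm1 at 0.113 ± 0.025 FPKM (SD, n = 3) in M1 and 0.107 ± 0.0058 in MNC, Chrm3 at 0.077 ± 0.035 in M3 and 0.037 ± 0.023 in MNC, and Chrm5 at 0.32 ± 0.087 in M5 and 0.363 ± 0.115 in MNC, so they do not check the labels. M5 replicate 3 stood apart. On the log2(FPKM + 1) scale its median difference from the other 2 M5 libraries was 0.68 over 8 Sertoli cell genes, 1.00 over 8 Leydig cell genes and -0.26 over 8 spermatid genes, against 0.10 over all genes tested. Epididymal genes summed to 23.7 to 73.6 FPKM in Con, 6.07 to 25.9 in M3 and at most 4.39 in the other libraries. Comparisons of M5 with other groups are in part also given without M5 replicate 3. Group means, pair correlations and likenesses to other genes include it.

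**Figure D1:**
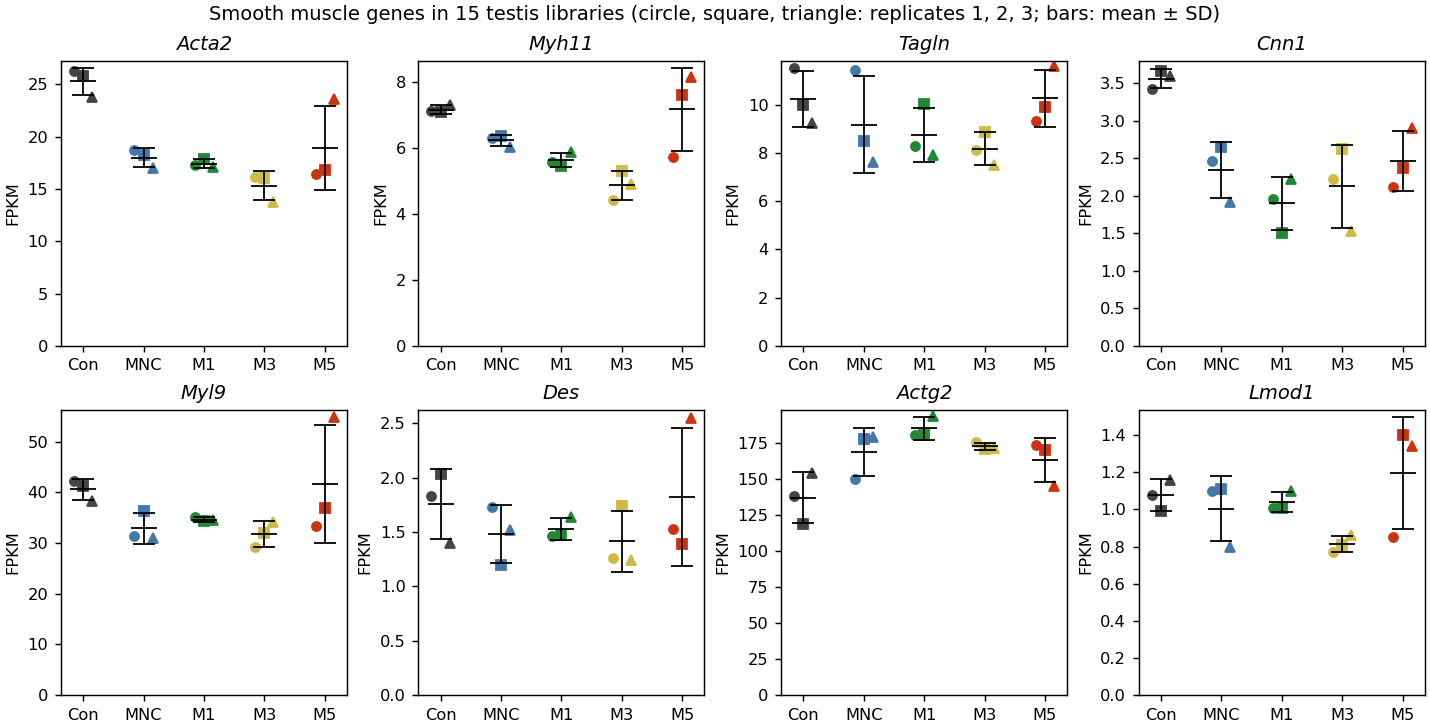
FPKM of the 8 genes in each of the 15 libraries, in 1 panel per gene with its own axis from 0. Points are libraries, with circles, squares and triangles for replicates 1, 2 and 3, and bars are the mean and SD of 3 libraries. All 12 lentivirus libraries lie below the 3 Con libraries for Acta2 and Cnn1, Actg2 has its lowest value in Con replicate 2, and the triangle of M5 lies above its group for all genes but Actg2 and Lmod1.

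The 8 genes spanned a wide range of levels. Actg2 had a mean of 165 FPKM over the 15 libraries and ranked 543 among all gene IDs by mean level. Myl9 (36.3 FPKM) came next, then Acta2 (13.75 to 26.24 FPKM over the libraries, median 17.26), and after it Tagln (9.31), Myh11 (6.22), Cnn1 (2.48), Des (1.60) and Lmod1 (1.03). In smooth muscle of the vessel wall and in myoid cells Acta2 is known as an abundant actin, whereas here the enteric actin gene was above it in every library. The ratio of Actg2 to Acta2 FPKM was 5.43 ± 0.945 (SD, n = 3) in Con, 9.40 ± 1.28 in MNC, 10.6 ± 0.646 in M1, 11.3 ± 0.996 in M3 and 8.92 ± 2.41 in M5. The M5 ratios were 10.5, 10.1 and 6.15 in replicates 1, 2 and 3, so the M5 mean leaned on replicate 3. All 8 genes passed the filter of a mean of 1 FPKM for testing, Lmod1 only just.

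The comparison of MNC with Con sets testes with control virus beside control testes. Of the 8 genes, 3 were lower in MNC at an adjusted p under 0.05, none was higher, and 7 of 8 had a negative difference. The 3 that fell encode the actin Acta2, the myosin light chain Myl9 and the actin-binding calponin Cnn1. Of the 14514 genes tested, limma called 20.4% in either direction, 12.4% lower and 8.03% higher. The median log2 difference was -0.17 over the 8 genes and -0.10 over all genes tested. A negative difference was found for 64.6% of all genes tested. The calls depended on single libraries. None of the 8 was called without Con replicate 1 or without Con replicate 2. Only Acta2 was called without Con replicate 3 or without MNC replicate 3, Acta2 and Cnn1 were called without MNC replicate 1, and Acta2 and Myl9 without MNC replicate 2. In a whole testis, fewer cells of a type and less RNA per cell cannot be told apart. FPKM is a share, and genes of round and elongating spermatids summed to 9774 to 19449 FPKM in Con and 19610 to 28219 in the lentivirus libraries, and the part of this in the differences was not tested.

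Acta2 forms the thin filaments of myoid cells and is used to mark them. It was at 26.24, 25.83 and 23.82 FPKM in the Con libraries and at 18.74, 18.24 and 17.05 in MNC. It was at 17.26, 17.90 and 17.11 FPKM in M1, at 16.19, 16.05 and 13.75 in M3, and at 16.45, 16.84 and 23.60 in M5. All 12 lentivirus libraries lay below the lowest Con library, with M5 replicate 3 just below it and the other 11 at 18.74 or less. Such separation of all 12 from Con was found for 2 of the 8 genes and for 17.8% of all genes. From Con to MNC the mean fell by 28.8%, a log2 difference of -0.47 (SE 0.062, 95% interval -0.62 to -0.32, limma adjusted p = 0.0171). Over 14 alternative fits the adjusted p was 0.0121 to 0.0866, and the call was lost in 3 of them, without Con replicate 1, without Con replicate 2 and with the replicate block.

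Actg2 moved the other way. It was at 137.67, 118.71 and 153.83 FPKM in Con and at 149.60, 177.54 and 178.66 in MNC. It was at 180.57, 180.09 and 193.76 FPKM in M1, at 175.42, 170.87 and 171.30 in M3, and at 173.14, 169.86 and 145.12 in M5. Of the 12 lentivirus libraries 10 lay above every Con library, and MNC replicate 1 and M5 replicate 3 lay within the Con range. MNC was 23.3% above Con, a log2 difference of 0.30 that did not pass (95% interval 0.03 to 0.58, limma adjusted p = 0.101). It passed only in the fit of all 5 groups together (adjusted p = 0.041), and over the 14 alternatives the adjusted p was 0.041 to 0.234.

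Myh11, the smooth muscle myosin heavy chain that is a defining marker of differentiated smooth muscle, was at 7.11, 7.08 and 7.31 FPKM in Con and 6.30, 6.36 and 6.04 in MNC. It was at 5.57, 5.46 and 5.89 FPKM in M1, at 4.42, 5.29 and 4.91 in M3, and at 5.74, 7.62 and 8.15 in M5. The M3 libraries were all below those of Con, MNC and M1, while M5 spread from the M1 range to above Con. The Con and MNC libraries did not overlap, as for 46.5% of all genes, and their log2 difference of -0.18 did not pass (limma adjusted p = 0.0769). Myl9, the regulatory light chain that the kinase phosphorylates, was at 42.32, 41.20 and 38.32 FPKM in Con and 31.41, 36.34 and 30.90 in MNC. It was at 35.12, 34.26 and 34.55 FPKM in M1, at 29.15, 32.04 and 34.12 in M3, and at 33.28, 36.84 and 54.95 in M5. M5 replicate 3 was the library highest in Myl9, and the other 11 lentivirus libraries lay below every Con library. From Con to MNC Myl9 fell by 19.03%, a log2 difference of -0.30 (SE 0.077, limma adjusted p = 0.0426), and this call was lost in 12 of the 14 alternatives (adjusted p 0.0427 to 0.14), every one but a pseudocount of 0.1 and the fit without MNC replicate 2.

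Cnn1 encodes calponin, which binds actin and restrains myosin. It was at 3.42, 3.66 and 3.60 FPKM in Con and 2.46, 2.65 and 1.92 in MNC. It was at 1.96, 1.51 and 2.22 FPKM in M1, at 2.22, 2.62 and 1.53 in M3, and at 2.11, 2.37 and 2.90 in M5. All 12 lentivirus libraries were below the 3 Con libraries, and the 4 lentivirus groups overlapped one another. Cnn1 fell by 34.2% from Con to MNC, a log2 difference of -0.45 (SE 0.103, limma adjusted p = 0.0338), with the call lost in 8 of 14 alternatives (adjusted p 0.0357 to 0.106), among them each of the 3 fits without a Con library and those without MNC replicate 2 or MNC replicate 3.

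Tagln encodes transgelin, an actin-binding protein used as an early smooth muscle marker. It was at 11.52, 9.98 and 9.24 FPKM in Con, 11.41, 8.50 and 7.60 in MNC, 8.28, 10.02 and 7.91 in M1, 8.13, 8.86 and 7.50 in M3, and 9.30, 9.88 and 11.58 in M5. Its Con and MNC libraries overlapped (log2 difference -0.16, 95% interval -0.52 to 0.21, limma adjusted p = 0.459). Des encodes desmin, the intermediate filament of muscle, and was at 1.83, 2.03 and 1.40 FPKM in Con, 1.73, 1.20 and 1.52 in MNC, 1.46, 1.47 and 1.64 in M1, 1.26, 1.74 and 1.24 in M3, and 1.53, 1.39 and 2.55 in M5. All 5 groups overlapped in desmin, and only M5 replicate 3 was well above the rest. Lmod1 encodes leiomodin, which nucleates actin filaments in smooth muscle, and was at 1.08, 0.99 and 1.16 FPKM in Con, 1.10, 1.11 and 0.80 in MNC, 1.01, 1.01 and 1.10 in M1, 0.77, 0.81 and 0.86 in M3, and 0.85, 1.40 and 1.34 in M5. The M3 libraries were low and closely spaced. The log2 differences of Des (-0.15, 95% interval -0.46 to 0.17) and Lmod1 (-0.05, 95% interval -0.30 to 0.19) between MNC and Con did not pass, with limma adjusted p of 0.417 and 0.701.

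Each knockdown was then set against the vector control MNC, which sets each receptor shRNA beside the control shRNA. None of the 8 genes was called by limma in any of the 3 comparisons, which share the MNC libraries. Of all genes tested, 0% were called for M1 (5.94% had an unadjusted p under 0.05), 0.00689% for M3 and 5.65% for M5. In M1 the median difference over the 8 genes was -0.01, 4 were higher and 4 lower, and none had an unadjusted p under 0.05. The interval for Acta2 in M1 was -0.18 to 0.09 on the log2 scale and that for Cnn1 -0.53 to 0.11, so a fall of Cnn1 by as much as the lower end could not be told from none. Myh11 was lower and Actg2 higher in all 3 M1 libraries than in every MNC library, with log2 differences of -0.12 and 0.14. Such separation was found for 12% of all genes, so 2 of 8 is not read as a result.

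In M3, 7 of the 8 genes had a negative difference from MNC, with a median of -0.12 against -0.04 over all genes. A negative difference was found for 60.6% of all genes tested. Myh11 (log2 difference -0.30, 95% interval -0.51 to -0.10) and Acta2 (-0.22, 95% interval -0.43 to -0.02) had M3 libraries that were all below the MNC libraries, and an unadjusted p under 0.05, but limma's adjusted p was 0.518 for both. Over all genes, groups did not overlap for 17.1% and 9.43% had an unadjusted p under 0.05. M3 held the lowest library for 5 of the 8 genes, Acta2, Myh11, Tagln, Myl9 and Lmod1. The share of all genes with their lowest library in M3 was not counted. Of all genes tested 68.6% were lower in M3 than in Con. In M3 replicate 1, which was lowest for Myh11, Myl9 and Lmod1, the 8 Leydig cell genes summed to 671 FPKM, against 1372 to 3191 in the other 14 libraries. The part of this in the values was not tested.

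In M5, 7 of the 8 genes and 7911 of all 14514 genes tested had a positive difference from MNC. Among the 8 it was all but Actg2, with a median of 0.14 against 0.03 over all genes. The largest was that of Myl9 (0.30, 95% interval -0.14 to 0.74, limma adjusted p = 0.359), and none of the 8 had an unadjusted p under 0.05, while 24.9% of all genes did. These values leaned on M5 replicate 3, which held the highest level of the 15 libraries for Myh11, Tagln, Myl9 and Des. The share of all genes highest in that library was not counted. M5 replicate 3 was above the mean log2 value of the other 2 M5 libraries for 9242 of the 14514 genes tested. Relative to the mean of the other 2 M5 libraries it was 41.8% higher in Acta2, 56.7% in Myl9, 74.7% in Des, 29.5% in Cnn1, 22.0% in Myh11, 20.8% in Tagln and 19.1% in Lmod1, while Actg2 fell by 15.4%. Without it the median over the 8 genes was 0.05, with 5 of 8 positive, and the log2 difference from MNC was 0.09 for Myl9, -0.11 for Acta2, -0.04 for Cnn1, 0.03 for Actg2 and 0.08 for Myh11. In that library 8 stromal genes also had a median difference of 0.87 from the other M5 libraries, beside the Sertoli and Leydig cell genes given earlier, and their part in the result was not tested.

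The direct comparisons between knockdowns gave no call among the 8 genes either. Between M5 and M1 limma called 6.75% of all genes, and the 8 genes had a median of 0.17 against 0.04 over all, with none of the 8 at an unadjusted p under 0.05 against 25.4% of all genes. Actg2 was lower in every M5 library than in any M1 library (-0.19, limma adjusted p = 0.2), as groups did not overlap for 33.7% of all genes. Without M5 replicate 3 the median of the 8 was 0.03, with 5 of 8 positive. Between M5 and M3 it called 0.0138% of all genes, and the 8 had a median of 0.27 against 0.06, which was 0.13 without M5 replicate 3. Myh11 (log2 difference 0.47, 95% interval 0.13 to 0.80) and Tagln (0.29, 95% interval 0.03 to 0.56) were higher in every M5 library than in any M3 library at an unadjusted p under 0.05, with a limma adjusted p of 0.338 for both. Without M5 replicate 3 these differences were 0.38 and 0.21. Groups did not overlap for 3 of the 8 genes and 22.9% of all genes, and 2 of the 8 and 14.3% of all had an unadjusted p under 0.05. Acta2 was the other gene that did not overlap between M5 and M3 (0.27, adjusted p = 0.407), and its value without M5 replicate 3 was 0.12.

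Set against Con, the knockdowns gave more calls, and these comparisons share the 3 Con libraries with each other and with that of MNC. In M1, 4 of the 8 genes were lower and 1 higher. Acta2 (-0.51, limma adjusted p = 0.00698), Cnn1 (-0.66, 0.0107), Myh11 (-0.30, 0.0135) and Myl9 (-0.22, 0.0196) fell, and Actg2 rose by 0.44 (0.0190). Of all genes tested 34.2% were called in M1, 23.9% lower and 10.3% higher. Leaving out Con replicate 1 kept 2 of the 5 calls, Acta2 and Cnn1, and leaving out M1 replicate 1 or M1 replicate 3 kept these and Myh11. Centring each library on its median moved the median of all genes from -0.12 to 0.01 and left Acta2, Cnn1 and Actg2 called, and quantile normalization left Acta2, Cnn1 and Myl9.

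In M3, 4 of the 8 genes were lower than in Con and 1 higher. Acta2 fell by 39.4% (log2 difference -0.69, limma adjusted p = 0.0238), Myh11 fell by 32.0% (-0.48, 0.0267), Cnn1 fell by 40.36% (-0.56, 0.0365) and Myl9 fell by 21.8% (-0.35, 0.0320). Actg2 was 26.2% higher (0.34, 0.0470). Of all genes 22.1% were called, 15.1% lower and 7.01% higher. No call remained without M3 replicate 1, without Con replicate 1 or without Con replicate 2, 2 remained without Con replicate 3 and 3 without M3 replicate 2. Centring moved the median of all genes from -0.13 to 0.03 and left Acta2, Myh11 and Actg2 called, while quantile normalization left Acta2, Myh11 and Myl9. In M5 only Cnn1 was called against Con (-0.40, limma adjusted p = 0.0483), beside 21.7% of all genes in either direction and 12.3% lower. Without M5 replicate 3 both Acta2 and Cnn1 were called, and without any one of the other 5 libraries of that comparison none was.

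**Figure D2:**
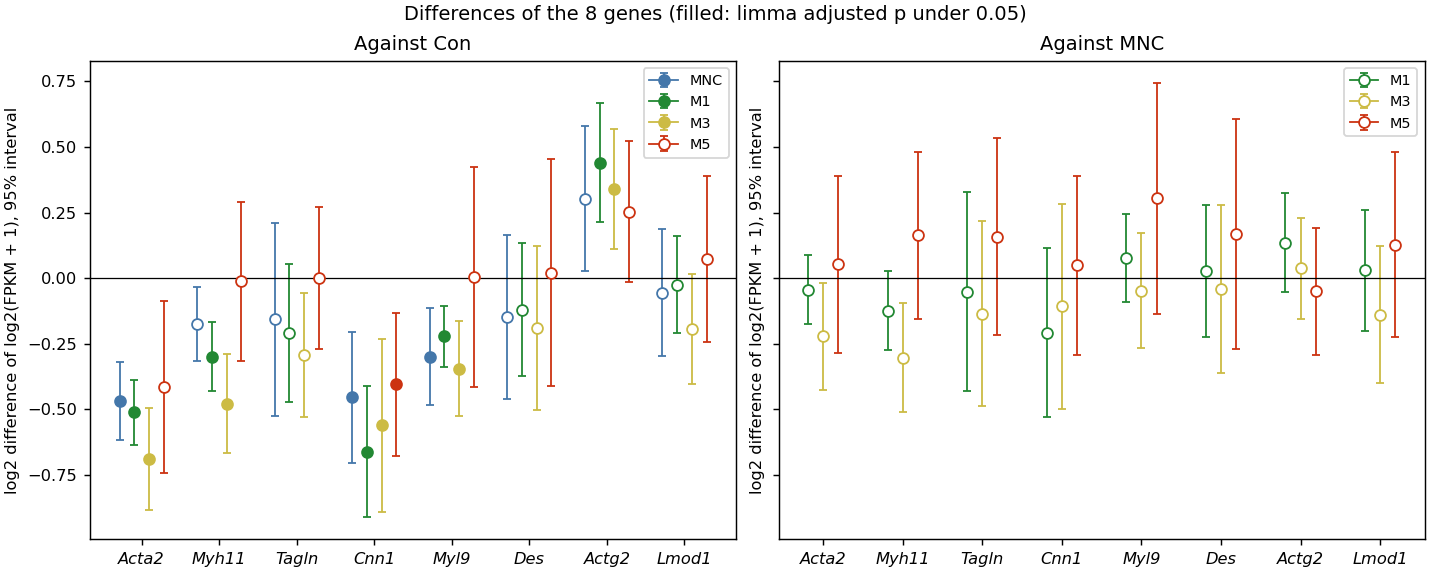
Log2 differences of log2(FPKM + 1) for the 8 genes, with 95% intervals, against Con (left) and against MNC (right). Filled points passed limma's adjusted p of 0.05. Acta2 and Cnn1 lie below 0 in all 4 groups on the left and Actg2 above 0, and no point is filled on the right.

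Epididymal RNA in Con was placed beside these differences, since the epididymal duct carries smooth muscle of its own. Crisp1, which encodes a secreted protein of the epididymis, was at 32.26, 2.86 and 12.15 FPKM in Con, 19.4, 5.03 and 0.68 in M3, and at most 0.15 in the other libraries. Gpx5, an epididymal glutathione peroxidase, reached 43.33 FPKM in Con replicate 2. M3 replicate 1 had a summed level of the 14 epididymal genes of 25.9 FPKM, beside 23.7 in Con replicate 3, and these libraries had Acta2 at 16.19 and 23.82 FPKM. Crisp1 made up 19.4 FPKM of the sum in M3 replicate 1, where Gpx5 was at 0.05 FPKM, and 32.26 FPKM in Con replicate 1, where Gpx5 was at 0.27. The part of epididymal RNA in the differences was not tested. The 11 skeletal muscle genes summed to 4.44 to 7.25 FPKM, much of it from Actn3, at 3.59, 3.88 and 2.99 FPKM in Con and 2.72, 2.87 and 2.77 in MNC, a level near that of Cnn1. Actn3 and Mylpf were the only 2 of the 11 that passed the filter, and neither was called in any comparison.

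The rest of the contractile apparatus was read from lists of related genes. Their calls rest on the same libraries: over all genes, MNC against Con gave 2967 calls but 8 without Con replicate 1 and 195 without Con replicate 2, and M3 against Con gave 3210 but 0 and 1 without these and 61 without M3 replicate 1. List counts against Con are to be read beside the shares of all genes called lower, 12.4% in MNC, 23.9% in M1, 15.1% in M3 and 12.3% in M5. Among 12 actin, myosin and calponin relatives tested, MNC against Con gave 1 call, the nonmuscle myosin heavy chain Myh10, which was lower (-0.35, limma adjusted p = 0.0251), with a list median of 0.03. The cytoplasmic actin genes Actg1 and Actb were at means of 463 and 289 FPKM in MNC and 539 and 261 in Con, and neither passed in that comparison. Against Con, 4 of the 12 relatives were lower and 2 higher in M1, and 2 were lower and 2 higher in each of M3 and M5. The shares of all genes called higher were 10.3%, 7.01% and 9.32%. Of 19 other contractile genes, 2 were lower in MNC than in Con, the tropomyosin Tpm1 (-0.62, limma adjusted p = 0.0333) and the intermediate filament gene Synm (-0.30, 0.0477). The chaperone gene Hspb7 was higher in MNC (0.71, 0.0168), and the list median was -0.15. Tpm1 was at 27.92, 30.15 and 25.01 FPKM in Con, 19.84, 19.54 and 14.22 in MNC, 15.24, 16.28 and 17.36 in M1, 12.75, 16.86 and 17.36 in M3, and 21.50, 20.56 and 34.96 in M5. It was thus low in MNC, M1 and M3, with M5 replicate 3 above every other library, as for Myl9. Against Con, 8 of the 19 were lower in M1, among them Tpm1 (-0.73, limma adjusted p = 0.00762), the smoothelin gene Smtn (-0.49, 0.0125), Csrp1 (-0.40, 0.0127) and Pdlim3 (-0.31, 0.0314), and 7 were lower in M3, among them Tpm1 (-0.79, 0.0261), Smtn (-0.55, 0.0349), Csrp1 (-0.45, 0.0366) and Mylk, the light chain kinase gene (-0.34, 0.0308). In M5 none was lower, and the tropomyosin Tpm4 (1.62, 0.0275) and the actin-binding Nexn (0.58, 0.0214) were higher than in Con, as were 9.32% of all genes. The M5 libraries had Tpm4 at 42.37, 14.62 and 16.68 FPKM and the Con libraries at 5.95, 7.74 and 5.77, with M5 replicate 1 far above the rest. The myosin light chain Myl6, the list's highest gene, was at means of 90.3 FPKM in MNC and 91.3 in Con and did not pass.

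Of 15 genes of contraction signalling, 2 were lower in MNC than in Con and none higher, a share near the 12.4% of all genes called lower. Both are parts of myosin phosphatase, which reverses the phosphorylation of Myl9: its targeting subunit Ppp1r12a (-0.38, limma adjusted p = 0.0173) and catalytic subunit Ppp1cb (-0.34, 0.0242). Rhoa, the small GTPase that restrains that phosphatase, was at means of 37.9 FPKM in MNC and 45.2 in Con and did not pass (adjusted p = 0.0658). Against Con, 7 of the 15 were lower in M1 and 1 higher, and 7 were lower in M3, with Oxtr, the oxytocin receptor, at -0.84 (adjusted p = 0.0251) in M1 and -1.09 (0.0324) in M3. Of 11 transcription regulators tested, Klf4, a repressor of smooth muscle genes that spermatids also express, was higher in MNC than in Con (0.30, adjusted p = 0.0351), and Mrtfa, an SRF cofactor, was lower in M5 than in M1 (-0.30, adjusted p = 0.0475) and than in Con (-0.29, adjusted p = 0.0276). Myocd, the gene for myocardin, was at most at 0.42 FPKM in any library and was not tested.

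Other markers of myoid cells and of cells beside them were read in the same way. Of 9 further myoid genes tested none was called between MNC and Con, and 8 of 9 had a negative difference (median -0.11). This is to be read beside 64.6% of all genes tested with a negative difference, and their median of -0.10. The matrix proteoglycan Dcn was at means of 40.2 FPKM in MNC and 43.2 in Con, and the growth factor binding protein Igfbp6 at 14.1 and 17.9. Against Con, Igfbp6 (-0.43, limma adjusted p = 0.0221) and the matrix gene Fn1 (-0.26, 0.0467) were lower in M1, and Igfbp6 (-0.68, 0.0325), the caveola gene Cav1 (-0.56, 0.0376) and the hedgehog receptor Ptch1 (-0.42, 0.0384) in M3. Both vascular smooth muscle and pericyte genes tested, Mcam and Rgs5, were lower in M1 (-0.31 and -0.49, adjusted p = 0.0190 and 0.0384) and M3 (-0.41 and -0.48, 0.0357 and 0.0349) than in Con. None of the 6 endothelial genes tested was called in any comparison, and Egfl7, the highest, was at 4.99, 3.32 and 4.39 FPKM in Con and 4.88, 5.06 and 5.55 in MNC. Of 8 stromal genes 5 were lower in M1 than in Con, Pdgfra (-0.57, adjusted p = 0.00831), Gsn (-0.49, 0.0471), Col3a1, Col1a2 and Dpt, and 2 were lower in M3, Pdgfra (-0.72, 0.0256) and Gsn (-0.54, 0.0476). Of 8 Leydig cell genes, Cyp17a1 and Lhcgr were lower than in Con in M1 (-0.84 and -1.31, adjusted p = 0.021 and 0.00643) and in M3 (-1.40 and -1.61, 0.0481 and 0.0259). The Leydig medians against Con were -0.50 in M1 and -0.86 in M3, beside -0.22 and -0.32 over the 8 smooth muscle genes. Of 8 Sertoli cell genes, the tight junction gene Cldn11 was lower in MNC than in Con (-0.36, adjusted p = 0.0337), and 5 were lower in M1 and 4 in M3. Against MNC, none of the 12, 19, 15, 11, 9 and 2 genes tested in these lists, from the relatives to the vascular genes, was called in M1, M3 or M5.

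The 8 genes varied among themselves in a pattern with 1 exception. Over the 15 libraries the 21 pairs without Actg2 all had a positive Pearson r of log2(FPKM + 1), from 0.32 to 0.84 with a median of 0.65, and the pair of Acta2 and Cnn1 was the closest. The 7 pairs with Actg2 were all negative, from -0.81 to -0.26 with a median of -0.63. After group means were removed the medians were 0.50 and -0.48. These are descriptions over libraries that share their groups, and M5 replicate 3 enters all of them. The share of positive pairs among all genes tested was not counted, so the pattern is not read as particular to the list. Genes outside the list also followed the mean of the 8, Osbpl11 at r = 0.956 beside 0.922 for Myh11, the closest member.

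**Figure D3:**
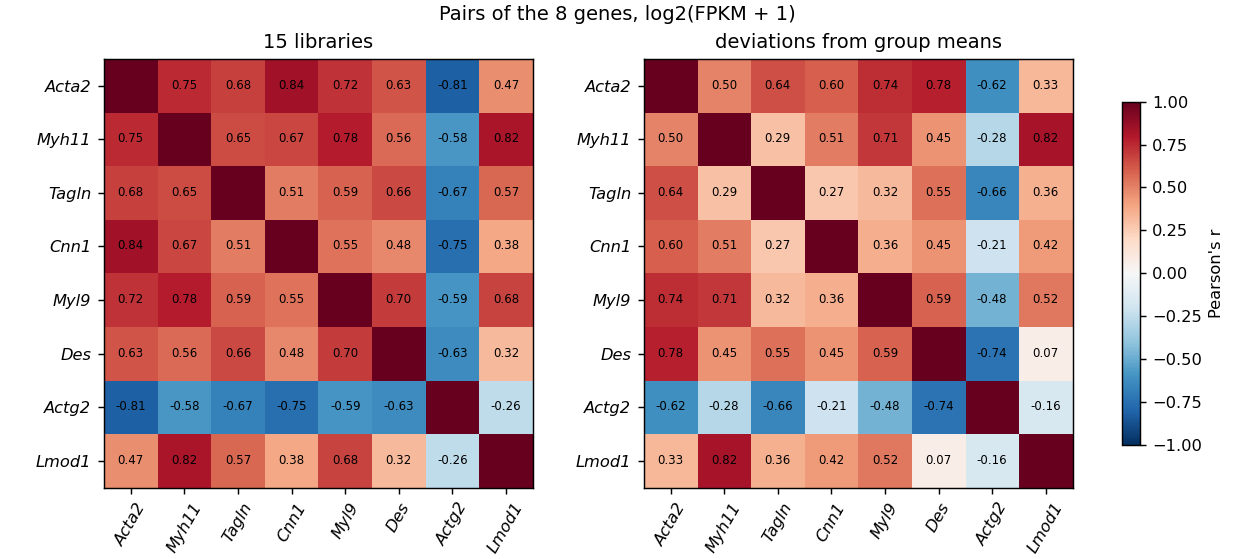
Pearson's r for each pair of the 8 genes over 15 libraries, from log2(FPKM + 1) (left) and from deviations from group means (right). Red is positive and blue negative, and the row and column of Actg2 are the blue ones in both panels.

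By the label Actg2 belongs with smooth muscle, but in these libraries its level did not follow the other 7. Actg2 is also known to be transcribed in haploid germ cells of the mouse testis. Within the 12 lentivirus libraries, log2 Actg2 rose with the mean z-score of 8 spermatid genes with a Pearson r of 0.75 (permutation p = 0.00778, adjusted over 16 relations 0.0233) and a Spearman rho of 0.80 (permutation p = 0.00282, adjusted 0.0451). Without M5 replicate 1 and M5 replicate 3, the libraries farthest from the median, r was 0.67. With Con included r was 0.93 over 15 libraries, and from deviations within groups 0.83. The within-group value also includes Con, whose scores ran from -1.79 to -0.263, a wider spread than in any lentivirus group. The relations were chosen after the values were seen, and the share of all genes tested that would pass against this score was not counted. For Acta2 the r with the spermatid score was -0.80 over 15 libraries (permutation p = 0.0002, adjusted 0.000896; rho -0.47, permutation p = 0.0819, adjusted 0.0936). From deviations within groups it was -0.37. Within the lentivirus libraries it was -0.51 (permutation p = 0.1, adjusted 0.107), and 0.03 without the same 2 libraries. Within the lentivirus libraries Tagln (r = -0.71, permutation p = 0.00872, adjusted 0.0233) and Des (r = -0.69, permutation p = 0.0167, adjusted 0.0381) were also related to it, at r = -0.61 and r = -0.28 without the 2 libraries. Their Spearman rho of -0.57 and -0.50 did not pass (permutation p = 0.0556 and 0.0994, adjusted 0.127 and 0.199).

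Against the mean z-score of 8 Sertoli cell genes, 4 of the 8 genes passed by Pearson's r within the lentivirus libraries, Acta2, Myl9, Myh11 and Lmod1. The share of all genes tested that would pass was not counted, so the 4 are not read as particular to the list. The score was 2.10 in M5 replicate 3 and 0.273 in MNC replicate 2, the next highest lentivirus library. The r was 0.86 for Acta2 (permutation p = 0.00216, adjusted 0.0233; rho 0.76, permutation p = 0.00623, adjusted 0.049) and 0.90 for Myl9 (permutation p = 0.0067, adjusted 0.0233; rho 0.63, permutation p = 0.0324, adjusted 0.0865). Over all 15 libraries, Con included, r was 0.82 for Acta2 and 0.92 for Myl9. Without Con replicate 1 and M5 replicate 3, the farthest libraries there, it was 0.82 and 0.74. Within the lentivirus libraries r fell to 0.49 and 0.31 without M5 replicate 3 and MNC replicate 2. Among these libraries both thus rest on M5 replicate 3 and MNC replicate 2, as does Myh11. Myh11 had r = 0.73 (permutation p = 0.00488, adjusted 0.0233; rho 0.71, permutation p = 0.0122, adjusted 0.049) and 0.49 without them. Lmod1 had r = 0.68 (permutation p = 0.00766, adjusted 0.0233; rho 0.72, permutation p = 0.0102, adjusted 0.049) and 0.64 without them.

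**Figure D4:**
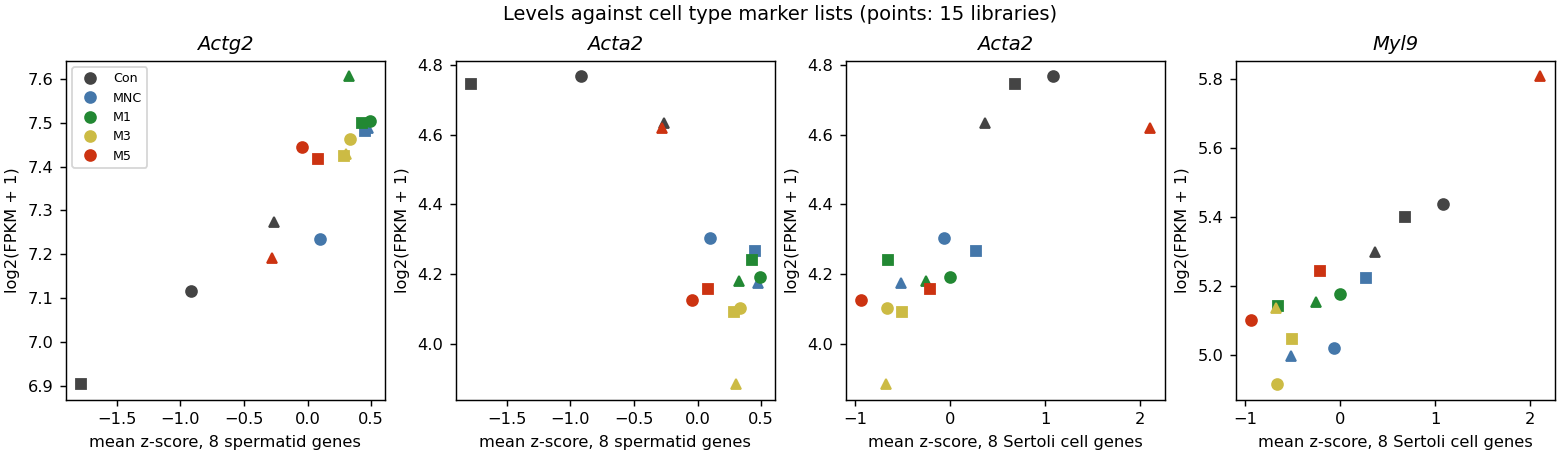
log2(FPKM + 1) of Actg2, Acta2 and Myl9 against the mean z-score of 8 spermatid or 8 Sertoli cell genes, with each point 1 of 15 libraries, coloured by group and shaped by replicate as in the plot of levels. Actg2 rises with the spermatid score, with Con replicates 1 and 2 at the low end, and M5 replicate 3 lies at the high end of the Sertoli score.

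The genes with the pattern most like the mean z-score of the 8, members left out, were Osbpl11 (Pearson r = 0.956 over 15 libraries), Grb14, Plxnc1, Ralb, Axl, Tuba1b, Map4k4, Tnik, Tmem87b and Atic (0.943). Myh11 was itself the member closest to that mean (0.922), and Actg2 stood at -0.652. Each member is part of that mean, so its r is partly with itself. Against the mean of the 7 members without Actg2, Osbpl11 was again first (0.978). The genes most like Actg2 were Nrd1 (0.966) and Prss55 (0.961), followed by Kif2c, Slfnl1, Lpin1, Herpud2, Tmem269 and Fscn3. Atp1a4, the sodium pump subunit known from sperm, was at rank 9 (0.947). These are likenesses over libraries that share groups and cell make-up.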

How the data were processed

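The data were RNA-seq libraries of mouse testis, 15 in all and 3 per group, with groups and replicate numbers from the sample titles. Per the study's methods, poly(A) RNA was sequenced and mapped by SOAPaligner. In the 1 table that the authors deposited, values are FPKM to 2 decimals (their methods also name RPKM); the submitters' processing notes name mm10. Entrez IDs were matched to a RefSeq table of GRCm38.p6 (21143 of 23510 IDs, 89.9%), which also gave promoters. Coding sequences came from transcripts of the reference as the longest open reading frame.

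Values were analysed as log2(FPKM + 1), a scale that understates changes of low genes. The count-based test of the study could not be used on FPKM, so limma 3.58.1 (lmFit, eBayes with trend, two-sided) in R 4.3.3 was run on the 14514 genes whose mean FPKM reached 1, with the 2 groups compared in each fit, Benjamini-Hochberg adjustment over all genes tested and a call at an adjusted p under 0.05. The fit was tested on simulated data. Relations across libraries used 100000 permutations, two-sided. The permutations ignored the groups, so differences between groups enter these p-values. Python 3.11.15, pandas 2.3.3, numpy 2.4.6, scipy 1.17.1 and matplotlib 3.10.9 were used.

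The 8 genes were all named. Of each other list, the 2 genes with the highest mean and the called genes (the 4 largest where more) could be named, and the 10 genes most like the mean of the 8. Genes like Actg2, and Myocd, were chosen after their values were seen. The members and lists were chosen with earlier results of these data known. Same-numbered libraries did not deviate together (correlations -0.40 to 0.18), so replicate numbers were not used as pairs. Alternatives were another pseudocount or filter, median centring, quantile normalization, all groups in one fit, no trend, the replicate block, Con in place of MNC, and fits without each replicate in turn; those for M1, M3 and M5 against Con were added after seeing the data. Depth limits the precision of genes near 1 FPKM, and no counting interval could be given from FPKM.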

Additional observations from a re-analysis of the deposited data

How the results depend on the processing

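Over the 6 comparisons of the report's main design, 631 of 696 alternative values of single genes kept their direction and their side of the threshold. Of the rest, 23 lost a call, 10 gained one and 32 changed sign. With MNC kept as the control, 25 changed sign, none of them called. Most values that kept their side were of genes not called in the main fit. All 23 lost calls were in MNC against Con, where Acta2 lost its call in 3 of 14 alternatives, Cnn1 in 8 and Myl9 in 12. Of the 8 genes, 3 were called between MNC and Con, and this was 1 with no filter, 1 with median centring, 0 with the replicate block and 0 to 2 without single replicates; Con replicates 1 and 2 each took it to 0. No gene was called against MNC or between knockdowns under any alternative that kept the control. With Con in place of MNC the counts were 5 for M1, 5 for M3 and 1 for M5. These 3 counts against Con became 3, 3 and 2 with median centring. Under quantile normalization those of M1 and M3 became 3 and 3, and under the replicate block those of M3 and M5 became 0 and 0, while M1 kept 5. Without single replicates they ranged from 2 to 5 for M1, 0 to 4 for M3 and 0 to 2 for M5.

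Sign changes fell on small differences. Median centring turned Lmod1 between MNC and Con to 0.035, and Myl9 and Des between M3 and MNC to 0.018 and 0.024, where quantile normalization gave Des 0.061. Con as the control turned M1's Myl9 to -0.22, Des to -0.12 and Lmod1 to -0.025, and M5's Acta2 to -0.41, Myh11 to -0.012, Cnn1 to -0.40 and Actg2 to 0.25; the alternative changes the reference group. Without single replicates the ranges that crossed 0 were, for MNC against Con, Lmod1 -0.094 to 0.020. For M1 against MNC they were Tagln -0.16 to 0.10, Des -0.057 to 0.099 and Lmod1 -0.046 to 0.069. For M3 against MNC they were Tagln -0.25 to 0.017, Cnn1 -0.22 to 0.037, Myl9 -0.099 to 0.025, Des -0.14 to 0.029 and Actg2 -0.046 to 0.082. For M5 against MNC they were Acta2 -0.11 to 0.14, Cnn1 -0.045 to 0.12, Des -0.0085 to 0.28 and Actg2 -0.13 to 0.029, and for M5 against M1 Acta2 -0.062 to 0.19 and Des -0.036 to 0.25. The cause of these was not tested.

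Counts over all genes moved more. For MNC against Con 2967 genes were called, 1740 with no filter, 1869 with centring, 10 with the replicate block and 8 to 2497 without single replicates. Of the calls 39.3% were higher, 77.5% with centring. For M1 against Con it was 4969 genes and 3071 with centring (30.1% and 72.7% higher), and 1259 to 4386 without single replicates. For M3 against Con it was 3210, 1847 with centring (31.7% and 86.1% higher), 1530 with quantile normalization, 0 with the block, and 0 to 2695 without single replicates. For M5 against Con it was 3143 (43.0% higher), 573 with the block, 708 to 5263 without single replicates, and 57.6% higher with centring. For M5 against MNC it was 820, and 447, 182, 2424, 215 and 14 with no filter, centring, all groups in one fit, no trend and the block, and 35 to 946 without single replicates. For M5 against M1 it was 980, and 630, 252, 384 and 39 with no filter, centring, no trend and the block, and 56 to 1690 without single replicates. M1 against MNC (0), M3 against MNC (1) and M5 against M3 (2) gave at most 188 calls under any alternative that kept the control. Same-numbered libraries were not shown to be paired, and the block moved no count of the 8 genes other than those given.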
